A study of Mus musculus with 24 samples.

Results

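The 12 libraries described here, of 24 in the series, come from inguinal white adipose tissue (iWAT) and were used to ask whether knockout of Mrs2 changes gene expression differently on a Western diet (WD) than on standard chow. Per the labels, the 4 groups were Mrs2 KO mice on WD, wild-type (WT) mice on WD, Mrs2 KO mice on chow and WT mice on chow, with 3 mice and 1 library each. All mice began their diet at 13 weeks of age and stayed on it for 52 weeks. RNA came from 100 mg of powder made from the whole frozen depot, whose lymph nodes had been taken out. The series text states as its aim the role of mitochondrial magnesium in metabolism under an obesogenic diet. The labels give neither the allele nor the strain, and do not say in which cells Mrs2 is missing.

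The genotype by diet difference of a gene is its KO effect on WD (KO WD minus WT WD) minus its KO effect on chow (KO chow minus WT chow). It is given in log2(FPKM + 1), where FPKM is the number of fragments of a gene scaled to its length and to the size of the library. A value above 0 says that KO stood higher against WT on WD than on chow. Genes whose FPKM averaged 0.5 or more across these libraries were tested, 14685 of the 54532 in the table. A gene is said to be called, or to rise or fall, where the adjusted p of limma was under 0.05.

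As background, Mrs2 is the channel through which magnesium enters the mitochondrial matrix, where many enzymes of energy metabolism need it. iWAT is a depot under the skin that stores triglyceride. In mice it can also hold beige adipocytes, fat cells rich in mitochondria that burn fuel for heat through uncoupling protein Ucp1. Noradrenaline switches both lipolysis and this heat production on, mainly through the receptor Adrb3. In white fat of obese mice, lipid-making enzymes and Adrb3 are commonly low, and macrophages gather.

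Reads assigned to genes numbered 15.4 to 20.4 M per library. All 9 adipocyte markers were detected in every library, and their summed level was 8821 to 9740 FPKM in KO WD, 9248 to 10190.2 FPKM in WT WD, 11172 to 14621 FPKM in KO chow and 10043 to 16142 FPKM in WT chow. Some libraries stood apart by RNA of other tissues. The summed level of 13 skeletal muscle genes was 1335, 28.8 and 49.3 FPKM in KO WD, 4427, 352 and 170.0 FPKM in WT WD, 16.9 to 94.7 FPKM in KO chow and 33.1 to 167 FPKM in WT chow. That of 15 T and B lymphocyte genes was 236, 759 and 262 FPKM in KO WD, 671, 240 and 149 FPKM in WT WD, 377, 240.2 and 1103 FPKM in KO chow, and 503, 1001 and 743 FPKM in WT chow. The 5 red cell genes summed to 691 to 1805 FPKM in KO WD, 1799 to 7726 FPKM in WT WD, 697 to 1338 FPKM in KO chow and 959 to 1402 FPKM in WT chow. In tissue RNA of this kind, fewer cells of a type and less RNA per cell cannot be told apart.

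Mrs2 itself (chromosome 13, 24987483 to 25020379, minus strand on mm10) was lower in every KO library than in any WT library of the same diet. It had 1.95, 1.68 and 1.601 FPKM in KO WD, against 5.01, 2.74 and 4.72 FPKM in WT WD. On chow Mrs2 had 2.05, 1.74 and 2.25 FPKM in KO chow, against 4.48, 4.67 and 3.87 FPKM in WT chow. The KO effect was -0.88 on WD (adjusted p = 0.0234) and -0.82 on chow (adjusted p = 0.432). In the authors' deposited tables, made on each diet separately, the log2 fold change of Mrs2 was -1.23 on WD (adjusted p = 0.000286) and -1.09 on chow (adjusted p = 8.15e-06). The call of limma on WD was lost when KO WD 1, KO WD 2, WT WD 1 or WT WD 3 was left out (adjusted p up to 0.105). The difference between the diets was -0.06 ± 0.23 (SE), with a 95% interval of -0.57 to 0.46. Reads remained in KO (262 to 508 per library), and 32.4% of the gene's exonic bases also belong to Gpld1 on the other strand. Which exons the allele removes is not given in the labels.

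No gene was called in the genotype by diet difference (limma, 0 of 14685, 0%). The smallest adjusted p was 0.0610, for Mycbp2. At an unadjusted p under 0.05 there were 1011 genes (6.88%), of which 526 lay above 0 (3.58%) and 485 below (3.3%). edgeR on the recovered reads called 0 genes, with 1100 at an unadjusted p under 0.05. DESeq2 on the same reads called 51 genes, 28 above 0 and 23 below, and all 51 had an unadjusted p under 0.05 in limma. The KO effect on each diet was tested in the same model. On WD 624 genes were called (4.25%), 470 higher (3.2%) and 154 lower (1.05%) in KO, and 2728 had an unadjusted p under 0.05 (18.6%). On chow none was called (0%), while 830 had an unadjusted p under 0.05 (5.65%), edgeR called 0 and DESeq2 called 68. With the replicate number as a block, 1 gene was called on chow. The authors' deposited tables, made on each diet separately, list 1281 genes with an adjusted p under 0.05 on WD (847 higher and 434 lower in KO) and 104 on chow (95 higher and 9 lower). The median standard error was 0.209 for the difference between diets and 0.148 for the KO effect on 1 diet, since the difference carries the error of all 4 groups.

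**Figure D1:**
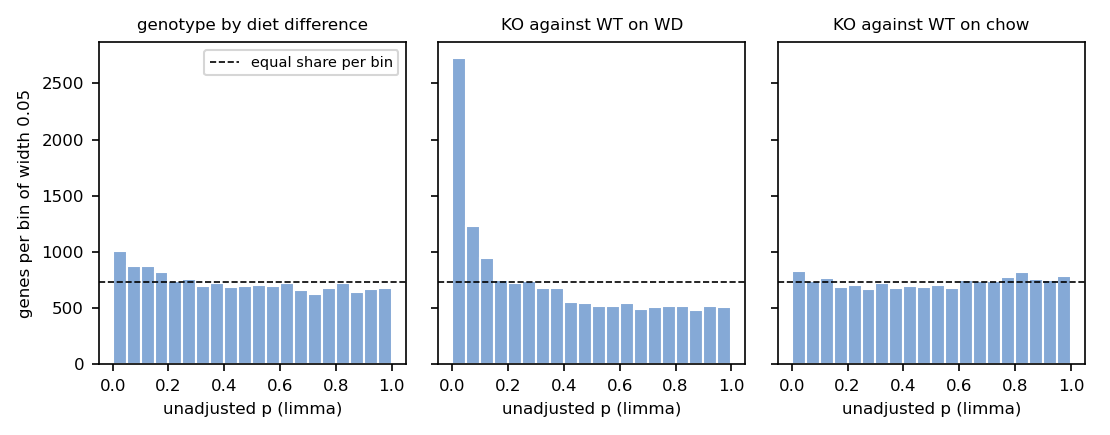
Number of genes in each bin of unadjusted limma p (bins of 0.05) for the genotype by diet difference, KO against WT on WD and KO against WT on chow, over the 14685 genes tested. The dashed line marks the height of equal bins. The lowest bin holds 1011 genes for the difference, 2728 on WD and 830 on chow.

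The count on WD leaned on single libraries. It was 17 without KO WD 1, 16 without KO WD 2, 26 without WT WD 3 and 871 without KO WD 3, and leaving out any 1 of the other 8 libraries gave 215 to 618. Without KO WD 1 and WT WD 1, both high in muscle genes, it was 4. Without KO WD 2, KO chow 3 and WT chow 3, picked as high in lymphocyte genes in an earlier look at these data, it was 15. WT chow 2, whose lymphocyte sum is above that of KO WD 2 and WT chow 3, stayed in that fit. Without the 3 libraries with the highest sums (KO chow 3, WT chow 2 and KO WD 2), a set chosen after seeing the data, it was 5. These fits also have fewer samples. In every sentence below that calls a gene on WD, the call is that of all 12 libraries.

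Of the 470 genes that rose in KO on WD, 438 (93.2%) also lay above 0 in KO against WT on chow, against 46.4% of all genes. Their median KO effect was 0.81 on WD and 0.37 on chow. The 154 genes that fell in KO on WD had medians of -0.75 on WD and -0.05 on chow, and 98 of them (63.6%) lay below 0 on chow, against 53.6% of all genes. The KO effects on the 2 diets come from separate libraries, and across the 14685 genes they correlated with Pearson's r = 0.401 and Spearman's rho = 0.302, a description, since genes are not independent samples. Seen from the diet, WD changed 312 genes in WT (2.12%), 199 higher (1.36%) and 113 lower (0.769%) than on chow, and 3109 had an unadjusted p under 0.05 (21.2%). In KO it changed none (0%), with 1390 at an unadjusted p under 0.05 (9.47%). That gap in counts is not a difference in itself, and its test is the genotype by diet difference above. Of the 199 that rose with WD in WT, 174 (87.4%) lay above 0 in KO, against 53.2% of all genes, with medians of 0.29 in KO and 0.92 in WT. Of the 113 that fell in WT, 101 (89.4%) lay below 0 in KO, against 46.8% of all genes, with medians of -0.28 in KO and -0.83 in WT.

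**Figure D2:**
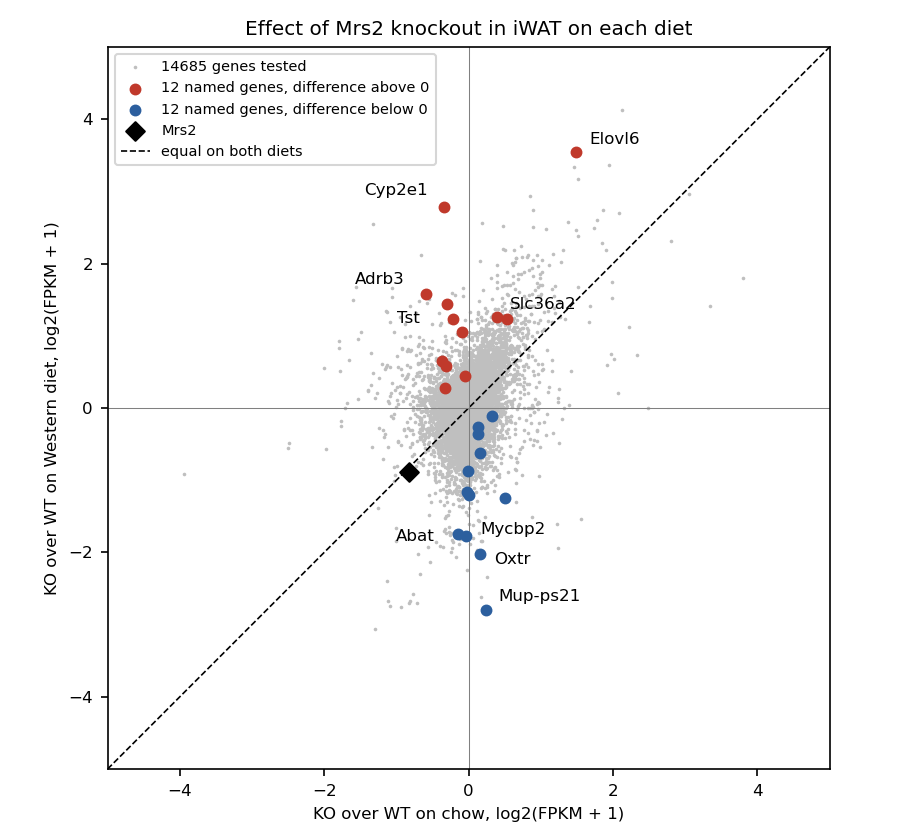
KO effect on WD (vertical axis) against KO effect on chow (horizontal axis), both in log2(FPKM + 1), for the 14685 genes tested (grey; 3 genes lie outside the axes). Points above the dashed line have a genotype by diet difference above 0. The 12 named genes with the smallest p above 0 (red) and below 0 (blue) were chosen on that distance. None is called by limma, and Mrs2 (black) lies near the line.

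Since no gene was called, the 12 genes with the smallest unadjusted p in each direction are described, and the same difference chose them, so their values are no further support. They had adjusted p-values of 0.0610 to 0.573. The KO effect on WD was called in 20 of the 24, against 4.25% of all genes. WD against chow was called in 21 of the 24 in WT and in 0 in KO, against 2.12% and 0% of all genes. These effects share libraries with the difference that chose the 24. In 22 of the 24 the 3 WT WD libraries lay outside the range of the other 9, above it in 11 and below it in 11. Over all genes tested the WT WD libraries did so in 7.39%, the KO WD libraries in 4.14%, the KO chow libraries in 0.545% and the WT chow libraries in 2.002%. None of the 24 changed direction in any alternative run, and DESeq2 called 21 of them, against 51 of all 14685 genes.

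Among the genes above 0, Adrb3 (chromosome 8, 27225776 to 27250616, minus strand), the adrenergic receptor of fat cells, had 104, 83.7 and 122 FPKM in KO WD, against 30.9, 44.4 and 27.6 FPKM in WT WD. On chow Adrb3 had 90.1, 74.7 and 48.6 FPKM in KO chow, against 131, 76.3 and 114 FPKM in WT chow. The WT WD libraries were lowest, and on chow the groups overlapped. The difference was 2.17 ± 0.399 (SE, 95% interval 1.28 to 3.05), with a KO effect of 1.57 on WD (adjusted p = 0.0226) and of -0.59 on chow. In WT the level fell with WD (log2 -1.61, adjusted p = 0.0253), while the KO value for WD against chow was 0.56. Of the exonic bases of Adrb3, 24.9% are shared with Gm45470 on the other strand, and reads of the shared part cannot be told apart without strand. Gm45470 had mean levels of 6.12 FPKM in KO WD, 1.56 FPKM in WT WD, 4.24 FPKM in KO chow and 7.52 FPKM in WT chow.

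Cyp2e1 (chromosome 7, 140763739 to 140774987, plus strand), a cytochrome P450 that oxidises ethanol and other small molecules, had the largest difference of the 24. It had 282, 203 and 192 FPKM in KO WD, against 13.3, 70.3 and 32.8 FPKM in WT WD. On chow Cyp2e1 had 602, 661 and 782 FPKM in KO chow, against 1006, 853 and 742 FPKM in WT chow. All WD libraries were below all chow libraries, and the WT WD libraries were lowest of all. The difference was 3.12 ± 0.65 (SE, 1.68 to 4.57). In WT it fell with WD (log2 -4.73, adjusted p = 0.00519), and the KO value for WD against chow was -1.603, which was not called. Tst, the mitochondrial sulfur enzyme rhodanese, had the same order of groups on WD. It had 9.58, 9.47 and 7.37 FPKM in KO WD, against 3.25, 3.58 and 1.39 FPKM in WT WD. On chow Tst had 18.3, 11.6 and 17.1 FPKM in KO chow, against 17.98, 21.8 and 17.7 FPKM in WT chow. Its difference was 1.73 ± 0.35 (SE, 0.96 to 2.51).

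Elovl6 (chromosome 3, 129532355 to 129638495, plus strand), the elongase that lengthens palmitate, had 40.9, 67.5 and 31.7 FPKM in KO WD, against 2.82, 3.99 and 2.095 FPKM in WT WD. On chow Elovl6 had 101, 58.8 and 43.6 FPKM in KO chow, against 19.97, 19.2 and 27.7 FPKM in WT chow. KO libraries were above WT libraries on both diets without overlap. The KO effect was 3.55 on WD (adjusted p = 0.00397) and 1.49 on chow (adjusted p = 0.532), a difference of 2.05 ± 0.48 (SE, 0.98 to 3.13). In the authors' deposited DESeq2 results on chow, Elovl6 had a log2 fold change of 1.62 (adjusted p = 0.000897). For Slc36a2 and Echdc1 the KO libraries also lay above the WT libraries on both diets, although on chow neither was called. Slc36a2 (chromosome 11, 55158470 to 55185077, minus strand), an amino acid transporter known as a surface marker of brown and beige fat cells, had 102, 91.1 and 97.7 FPKM in KO WD, against 42.98, 45.5 and 32.2 FPKM in WT WD. On chow Slc36a2 had 56.04, 60.97 and 53.9 FPKM in KO chow, against 42.7, 48.02 and 39.1 FPKM in WT chow. Its KO effect was 1.26 on WD (adjusted p = 0.00497) and 0.39 on chow, and the KO WD libraries lay above the other 9. Echdc1, which clears ethylmalonyl-CoA, a side product of fatty acid synthesis, had 16.5, 16.2 and 15.2 FPKM in KO WD, against 5.72, 7.29 and 5.76 FPKM in WT WD, and its difference was 0.69 ± 0.16 (SE). Of its exonic bases, 75.9% also belong to Rnf146 on the other strand.

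The other genes above 0 had smaller differences or lower levels. Gsta4, a glutathione transferase that clears lipid aldehydes, had 28.8, 27.3 and 27.5 FPKM in KO WD, against 10.2, 16.1 and 8.62 FPKM in WT WD. On chow Gsta4 had 29.5, 30.2 and 25.1 FPKM in KO chow, against 31.97, 25.9 and 43.04 FPKM in WT chow, with overlap between the groups. Its difference was 1.45 ± 0.31 (SE). Kcnk2, a potassium channel, had 2.68, 5.29 and 3.51 FPKM in KO WD, against 1.39, 1.23 and 1.21 FPKM in WT WD, and 3.17 to 4.03 FPKM in the 6 chow libraries. The differences were 1.02 ± 0.24 (SE) for Mlana, a melanosome protein, 0.89 ± 0.21 for Lman2l, a lectin of the secretory pathway, 0.597 ± 0.12 for Dxo, which removes faulty RNA caps, and 0.495 ± 0.11 for Kxd1, a part of the complex that positions lysosomes. Of Kxd1's exonic bases, 7.05% are shared with Fkbp8. Mlana rested on 5 to 65 reads per library. For Dxo the KO effect was 0.27 on WD (adjusted p = 0.114) and -0.33 on chow (adjusted p = 0.707), and the WT chow libraries lay above all others.

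**Figure D3:**
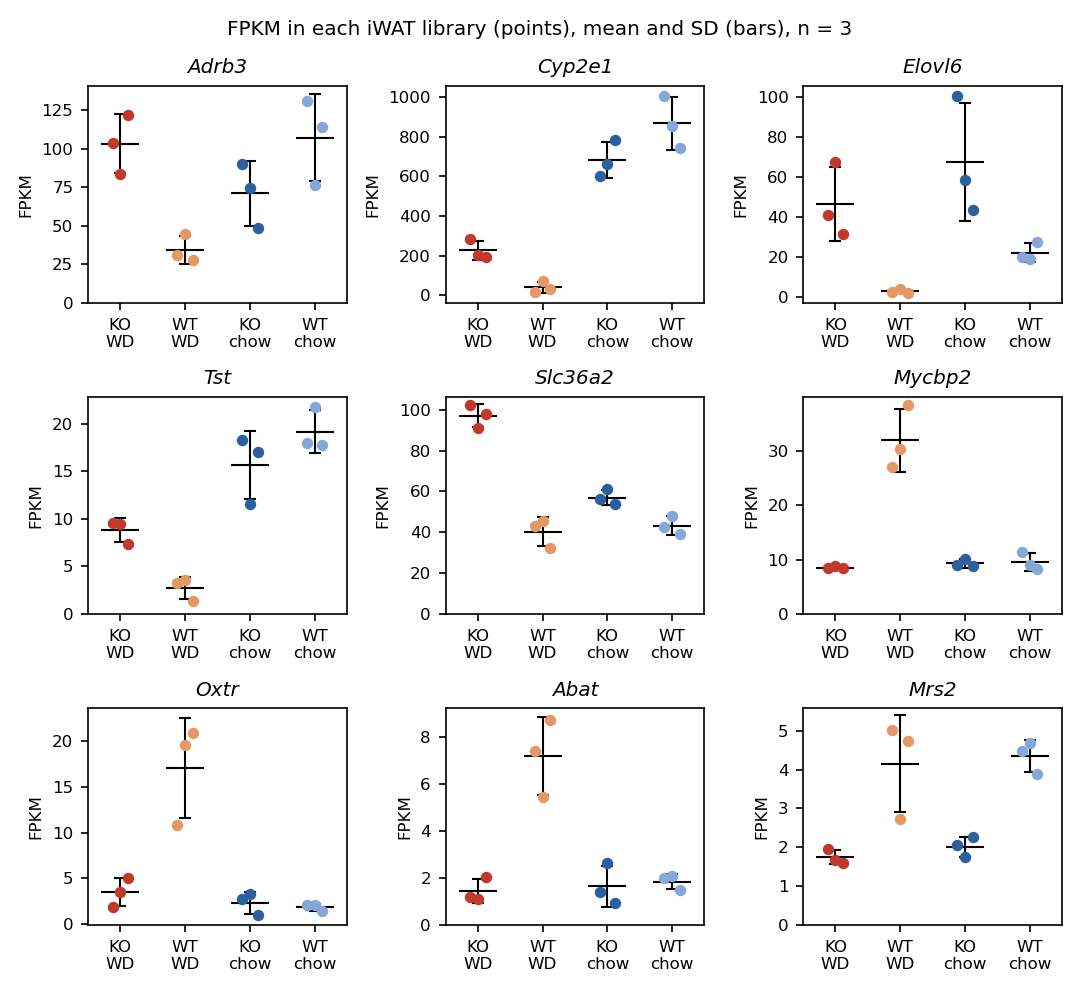
FPKM of 8 of the 24 named genes and of Mrs2 in each of the 12 libraries (points, linear axis), with mean and SD of the 3 libraries of a group (bars). WT WD is the lowest group for Adrb3, Cyp2e1, Elovl6 and Tst and the highest for Mycbp2, Oxtr and Abat; Mrs2 is low in KO on both diets.

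Among the genes below 0, Mycbp2 (chromosome 14, 103113411 to 103346814, minus strand), which codes for a very large ubiquitin ligase, came nearest to a call. It had 8.39, 8.797 and 8.42 FPKM in KO WD, against 27.1, 30.3 and 38.4 FPKM in WT WD. On chow Mycbp2 had 8.99, 10.2 and 8.77 FPKM in KO chow, against 11.5, 9.05 and 8.28 FPKM in WT chow. The 3 WT WD libraries were far above the other 9, which all lay between 8.28 and 11.5 FPKM. The difference was -1.74 ± 0.196 (SE, -2.18 to -1.31, adjusted p = 0.0610), with a KO effect of -1.77 on WD (adjusted p = 0.00200) and -0.03 on chow. The gene had 3114 to 16130 reads per library. Its difference was called with genes of at least 5 FPKM only (adjusted p = 0.0239), with median-of-ratios scaling (0.0442), with library weights (0.0303) and with DESeq2 (2.45e-13), and not with edgeR (0.0639) or the replicate block (0.363). Leaving out 1 library gave adjusted p-values of 0.0385 to 0.335. Together with Elovl6, Slc36a2, Echdc1 and Acaca, a gene of fatty acid synthesis described below, Mycbp2 kept its call on WD in all 12 fits that left out 1 library.

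Oxtr, the oxytocin receptor, had 1.93, 3.53 and 5.003 FPKM in KO WD, against 10.9, 19.6 and 20.9 FPKM in WT WD. On chow Oxtr had 2.72, 3.34 and 0.995 FPKM in KO chow, against 2.08, 2.104 and 1.43 FPKM in WT chow. The WT WD libraries lay above all others, with a difference of -2.18 ± 0.49 (SE, -3.28 to -1.08). Abat, which breaks down the transmitter GABA, had 1.17, 1.101 and 2.03 FPKM in KO WD, against 7.396, 5.43 and 8.702 FPKM in WT WD, and 0.929 to 2.63 FPKM in the 6 chow libraries. Its difference was -1.602 ± 0.34 (SE). Slc8a1, the sodium-calcium exchanger of the cell membrane, had 1.68, 1.61 and 2.31 FPKM in KO WD, against 4.85, 5.49 and 5.84 FPKM in WT WD, and 0.931 to 1.91 FPKM on chow. Its difference was -1.14 ± 0.26 (SE). Ddah1, which degrades an inhibitor of nitric oxide synthesis, had 0.521, 0.575 and 1.19 FPKM in KO WD, against 3.503, 4.02 and 2.11 FPKM in WT WD, and its difference was -1.75 ± 0.33 (SE). All 4 genes fell in KO on WD (adjusted p = 0.0223, 0.0131, 0.0188 and 0.0232), and on chow none was called.

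Mup-ps21, a pseudogene of the major urinary proteins, had 0.232, 0.109 and 2.34 FPKM in KO WD, against 8.397, 10.4 and 13.2 FPKM in WT WD. It had 0 to 0.652 FPKM on chow, that is 0 to 6 reads. The difference was -3.03 ± 0.54 (SE) and rested on 86 to 129 reads per WT WD library. Members of this family are near-identical in sequence, so that reads assigned to 1 of them are uncertain. Jpt2, which binds a calcium-releasing messenger, had 2.86, 3.12 and 5.06 FPKM in KO WD, against 8.55, 8.89 and 11.6 FPKM in WT WD, and 2.82 to 3.36 FPKM on chow, with a difference of -1.21 ± 0.23 (SE). The transcriptional coactivator Eya2 had 1.17, 1.17 and 1.64 FPKM in KO WD, against 3.12, 3.44 and 3.22 FPKM in WT WD, with a difference of -0.87 ± 0.15 (SE). Etv5, a transcription factor, followed at -0.78 ± 0.19. The smallest sizes were those of Bod1l, which protects replication forks, at -0.49 ± 0.11, Akirin1, a nuclear protein, at -0.43 ± 0.098, and Kif3b, a motor subunit of transport along microtubules, at -0.401 ± 0.09. For Akirin1 the KO effect on WD was only -0.11 (adjusted p = 0.457), and on chow its mean level was 17.2 FPKM in KO and 13.5 FPKM in WT.

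The pathway lists are described by their medians and counts beside those of all genes tested. For all genes the median difference was -0.0032, 3.58% had an unadjusted p under 0.05 above 0 and 3.3% below. Of all 14685 genes 7273 lay above 0 in the difference, and on WD 3.2% rose and 1.05% fell in KO. Counts in the lists below are to be read against these shares. Some genes belong to more than 1 list, so the lists are not separate results. Adrb3, for example, is counted among the thermogenic genes, in lipolysis and triglyceride synthesis, and among the adipokines and genes of adipocyte identity. No member of any list was called in the difference by limma. The DESeq2 calls include the list members Dgat1 (adjusted p = 2.62e-05), Adrb3 (6.48e-05), Elovl6 (0.00549), Acaca (0.0199) and Bckdhb (0.0343).

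**Figure D4:**
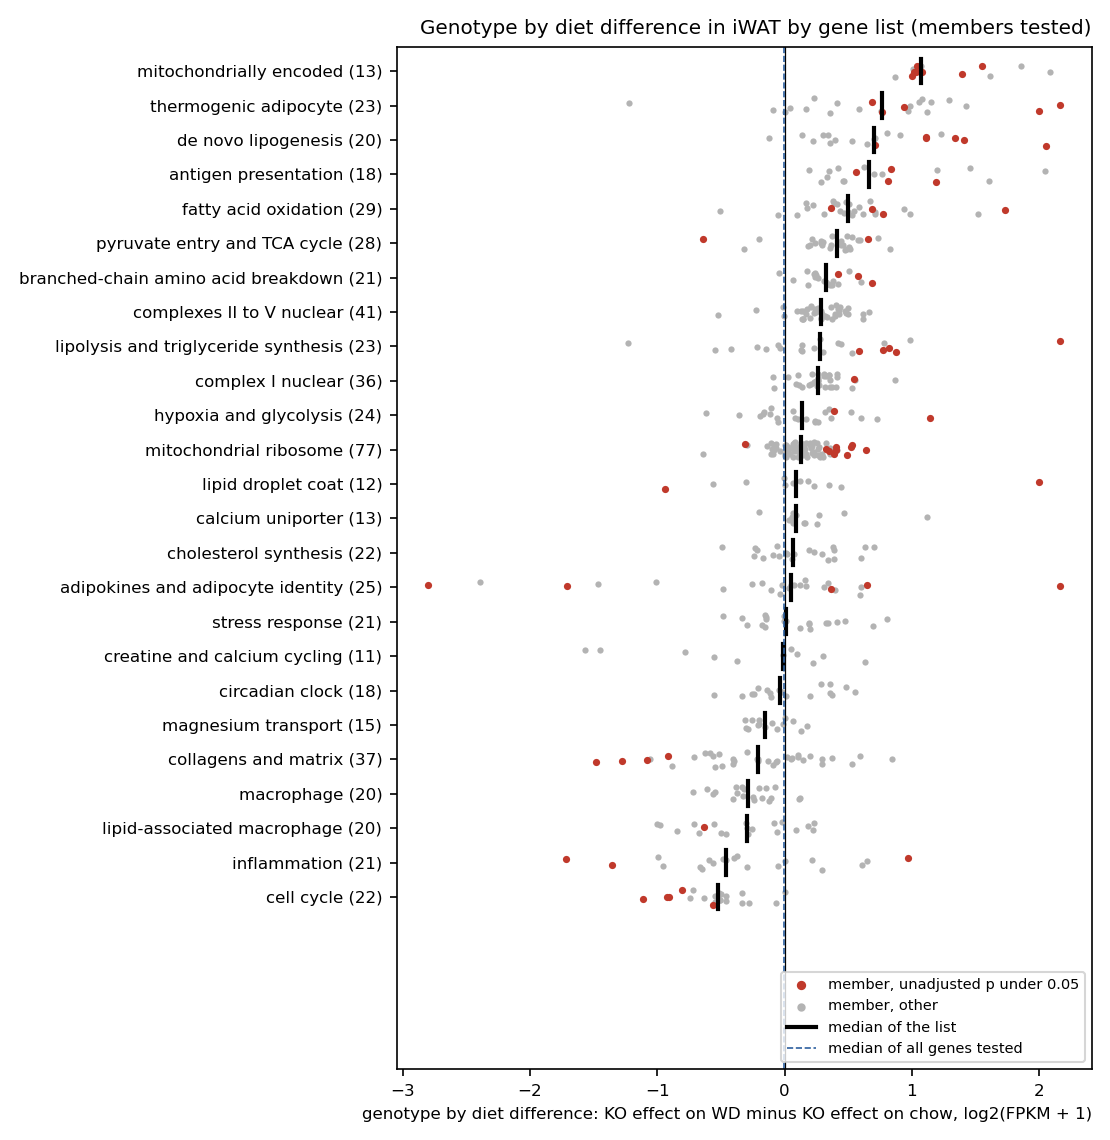
Genotype by diet difference (horizontal axis, log2(FPKM + 1)) of every tested member of the 25 pathway lists, ordered by the median of the list (black bar), with the number of members tested in brackets. Red points have an unadjusted p under 0.05 and none is called by limma. Medians run from 1.07 for the mitochondrially encoded genes to -0.52 for the cell cycle genes.

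Thermogenic genes mark beige and brown fat cells. Of 23 tested, 21 lay above 0 in the difference, with a median of 0.76, and 5 had an unadjusted p under 0.05, all above 0. On WD 18 of the 23 rose in KO (3.2% of all genes did), with a median KO effect of 1.73. On chow the median was 0.88, 21 lay above 0 and none was called by limma. Without KO WD 1 or without KO WD 2 none of the 18 calls on WD was made, and 2 were made without WT WD 3. Besides Adrb3 the 5 were Cidea, Ppargc1b, Ppargc1a and Cpt1b. Cidea, a lipid droplet protein of brown fat, had 437, 351 and 106 FPKM in KO WD, against 15.8, 28.1 and 5.36 FPKM in WT WD. On chow Cidea had 196, 142 and 109 FPKM in KO chow, against 26.5, 45.4 and 28.2 FPKM in WT chow. KO libraries were above WT libraries on each diet, and KO WD 3 was the lowest KO WD library. The difference was 1.998 ± 0.87 (SE), with KO effects of 4.12 on WD and 2.13 on chow. The authors' deposited DESeq2 results on chow gave Cidea a log2 fold change of 2.18 (adjusted p = 2.42e-09). Ppargc1a and Ppargc1b are coactivators that drive mitochondrial biogenesis. Ppargc1b had 7.38, 5.16 and 3.68 FPKM in KO WD, against 1.63, 2.16 and 1.14 FPKM in WT WD, with a difference of 0.94 ± 0.299 (SE). Ppargc1a had 4.03, 2.58 and 2.51 FPKM in KO WD, against 1.79, 1.698 and 0.716 FPKM in WT WD, with a difference of 0.76 ± 0.304 (SE) and no call on WD. Cpt1b, the entry enzyme of fatty acid oxidation in brown fat and muscle, had 1.71, 1.92 and 0.713 FPKM in KO WD, against 0.234, 0.0781 and 0.06796 FPKM in WT WD, and its difference was 0.69 ± 0.26 (SE). On chow the authors' DESeq2 results gave Cpt1b a log2 fold change of 1.97 (adjusted p = 0.0158).

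Ucp1, the uncoupling protein itself, was named in addition to the rule as the defining gene of heat production. It had 651, 699 and 129 FPKM in KO WD, against 27.5, 27.99 and 0.168 FPKM in WT WD. On chow Ucp1 had 158, 89.8 and 92.6 FPKM in KO chow, against 0.02701, 0.568 and 0.07097 FPKM in WT chow. KO libraries were above WT libraries on each diet, and the WT WD libraries ranged from 0.168 to 27.99 FPKM. The KO effect was 5.302 on WD (adjusted p = 0.0311) and 6.53 on chow (adjusted p = 0.41). The difference of -1.22 ± 1.57 (SE) had an interval of -4.73 to 2.28, which covers differences of either sign. It was -2.76 to -0.43 when 1 library was left out, -4.25 with edgeR and -4.24 with DESeq2. The Ucp1 values depended on the scale, since most WT chow values were near 0. With a pseudocount of 0.1 the difference was -2.78, and the call on WD was lost (adjusted p = 0.0634), as it was with edgeR (adjusted p = 0.0645).

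Genes of the respiratory chain lay mostly above 0, and the mitochondrially encoded ones had the highest median of the 25 lists. All 13 protein-coding genes tested from the mitochondrial genome lay above 0 (median 1.07), and 7 had an unadjusted p under 0.05. On WD 9 of the 13 rose in KO, none of them without KO WD 1, KO WD 2 or WT WD 3. The median KO effect was 1.91 on WD and 0.64 on chow. mt-Co2, a subunit of cytochrome oxidase, had 176, 200.5 and 71.6 FPKM in KO WD, against 34.4, 32.5 and 22.3 FPKM in WT WD. On chow mt-Co2 had 100.2, 57.2 and 70.6 FPKM in KO chow, against 51.1, 47.6 and 43.96 FPKM in WT chow. Its difference was 1.55 ± 0.51 (SE, 0.43 to 2.68). mt-Nd4, a complex I subunit, had 4494, 3852 and 2327 FPKM in KO WD, against 1225, 1363 and 899 FPKM in WT WD, and its difference was 1.04 ± 0.397 (SE). KO WD 3 was the lowest KO WD library for both. The differences were 1.39 ± 0.52 (SE) for mt-Co3, another cytochrome oxidase subunit, and 1.03 ± 0.43 for mt-Nd2 of complex I. In the authors' deposited DESeq2 results on chow the adjusted p of mt-Nd2 was 0.00228. Those of mt-Co2, mt-Co3 and mt-Nd4 were 0.358, 0.548 and 0.528. The share of gene-assigned reads from mitochondrial genes was 11.6, 10.3 and 5.27% in KO WD, against 3.42, 3.29 and 2.49% in WT WD. On chow it was 6.56, 5.94 and 5.85% in KO, against 4.63, 4.47 and 3.54% in WT. The libraries were captured on poly-T beads, so these transcripts are sampled only as far as they carry a tail.

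The nuclear subunits had lower medians. For complex I the median difference over 36 genes was 0.26, 34 lay above 0 and 1, Ndufb10, had an unadjusted p under 0.05. It had 96.8, 95.7 and 71.8 FPKM in KO WD, against 60.2, 50.1 and 45.9 FPKM in WT WD, with a difference of 0.54 ± 0.21 (SE). For complexes II to V the median over 41 genes was 0.29, 37 lay above 0 and 0 had an unadjusted p under 0.05. On WD 18 of 36 and 25 of 41 rose in KO, none of them without KO WD 1, KO WD 2 or WT WD 3. The median difference was 0.15 without WT WD 3 and 0.42 without KO WD 3 for complex I. For complexes II to V it was 0.17 without WT WD 3, 0.18 without KO WD 2 and 0.46 without KO WD 3. The median KO effect on chow was 0.41 and 0.44 for these lists. Genes of the mitochondrial ribosome, which translates the encoded subunits, had a median of 0.13 over 77 genes. Of these 63 lay above 0, and 9 had an unadjusted p under 0.05 above 0 and 1 below. On WD 17 of the 77 rose in KO, of which 0 were called without KO WD 1, KO WD 2 or WT WD 3 and 1 without WT WD 1. The median KO effect of the ribosome list was 0.34 on WD and 0.19 on chow. On chow 73 of the 77 lay above 0 and none was called, while 21 had an unadjusted p under 0.05, all above 0. Without KO WD 3 the median difference was 0.20. Mrpl45, of the large subunit, had 12.97, 10.7 and 10.1 FPKM in KO WD, against 8.98, 7.17 and 7.52 FPKM in WT WD, with a difference of 0.52 ± 0.16 (SE), and Mrps18b, of the small subunit, had a difference of 0.402 ± 0.13. Those of Mrpl37 and Mrps18a were 0.33 ± 0.11 and 0.64 ± 0.22.

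The enzymes that feed the chain also lay mostly above 0. Of 28 genes of pyruvate entry and the TCA cycle, 25 lay above 0 (median 0.41), and on WD 20 rose and 2 fell in KO. The median KO effect of this list was 1.03 on WD and 0.56 on chow. On chow 26 lay above 0 and none was called, while 19 had an unadjusted p under 0.05, all above 0 (5.65% of all genes had one). Citrate synthase, Cs, had 176, 175 and 113 FPKM in KO WD, against 70.8, 75.3 and 53.2 FPKM in WT WD. On chow Cs had 105, 97.6 and 81.3 FPKM in KO chow, against 69.5, 68.6 and 55.8 FPKM in WT chow. Its difference was 0.65 ± 0.29 (SE). Pdk3, a kinase that holds pyruvate out of the cycle, fell in KO on WD, with 1.48, 2.36 and 2.03 FPKM in KO WD, against 3.79, 3.65 and 4.96 FPKM in WT WD and a difference of -0.64 ± 0.21 (SE). Of 29 genes of fatty acid oxidation, 27 lay above 0 (median 0.50), 4 had an unadjusted p under 0.05, all above 0, and 15 rose in KO on WD. Their median KO effect was 0.98 on WD and 0.46 on chow. On chow 28 lay above 0 and none was called, while 13 had an unadjusted p under 0.05, all above 0. Ehhadh, the peroxisomal bifunctional enzyme, had 122, 65.98 and 26.8 FPKM in KO WD, against 13.3, 14.2 and 9.84 FPKM in WT WD. KO WD 3 was again the lowest KO WD library, and the difference was 1.73 ± 0.599 (SE). Cpt2, which releases acyl-CoA inside mitochondria, had 133, 138 and 92.4 FPKM in KO WD, against 47.9, 54.2 and 35.5 FPKM in WT WD, with a difference of 0.77 ± 0.28 (SE). In the authors' deposited DESeq2 results on chow the adjusted p was 0.0428 for Cpt2, 0.535 for Ehhadh and 0.158 for Cs. For branched-chain amino acid breakdown 20 of 21 lay above 0 (median 0.32), and 3 rose in KO on WD. The median KO effect of these genes was 0.45 on WD and 0.15 on chow, where 16 lay above 0. Bckdhb, a subunit of the committing dehydrogenase, had 47.8, 46.5 and 42.6 FPKM in KO WD, against 31.2, 32.4 and 25.7 FPKM in WT WD. On chow Bckdhb had 37.9, 39.4 and 34.1 FPKM in KO chow, against 35.2, 39.8 and 43.1 FPKM in WT chow, and its difference was 0.69 ± 0.16 (SE). Those of Mcee, an epimerase late in the pathway, and of Slc25a44, which carries these amino acids into mitochondria, were 0.58 ± 0.22 and 0.42 ± 0.18. The calls on WD of these 3 lists fell to at most 1 in each when KO WD 1, KO WD 2 or WT WD 3 was left out.

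De novo lipogenesis turns acetyl units into fatty acids. Of its 20 genes, 19 lay above 0 in the difference (median 0.70), and 6 had an unadjusted p under 0.05, all above 0 (30% of the list, against 3.58% of all genes). On WD 7 rose in KO, of which 3 were called without KO WD 1, 2 without KO WD 2 and 2 without WT WD 3. The median KO effect was 1.17 on WD and 0.49 on chow. The median difference was 0.30 without WT WD 3 and 0.96 without WT chow 3. Fasn, the fatty acid synthase, had 585, 682 and 720.3 FPKM in KO WD, against 179, 267 and 79.2 FPKM in WT WD. On chow Fasn had 1195, 970.1 and 782 FPKM in KO chow, against 683, 666 and 502 FPKM in WT chow. WT WD libraries were lowest, and the KO chow libraries were highest. The difference was 1.41 ± 0.53 (SE, 0.24 to 2.58). Acaca, which makes the malonyl-CoA that Fasn uses, had 46.3, 59.8 and 49.8 FPKM in KO WD, against 15.1, 16.7 and 11.4 FPKM in WT WD. On chow Acaca had 88.7, 82.98 and 55.7 FPKM in KO chow, against 48.5, 49.7 and 40.4 FPKM in WT chow, and its difference was 1.11 ± 0.28 (SE, 0.49 to 1.73). Acss2, which activates acetate, had 23.1, 23.5 and 38.1 FPKM in KO WD, against 5.92, 8.91 and 3.39 FPKM in WT WD. On chow Acss2 had 36.1, 26.3 and 16.4 FPKM in KO chow, against 14.1, 19.3 and 11.2 FPKM in WT chow, and its difference was 1.34 ± 0.51 (SE). All 3 rose in KO on WD (adjusted p = 0.0226 for Fasn, 0.00497 for Acaca and 0.0217 for Acss2). Of the 12 fits that left out 1 library, Acaca kept this call in 12, and Fasn and Acss2 each kept it in 9.

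The promoters of 3 lipogenic genes that rose in KO on WD are shown because these genes had the 3 largest differences of the list, and because promoters of fat-making genes are known for CCAAT boxes, which bind the factor NF-Y. The 250 bases before the RefSeq start of each gene (GRCm38.p6) are written 5′ to 3′ on the gene's strand. Matches to CCAAT or its reverse complement ATTGG are in capitals. The windows lie at chr3:129532136-129532385 (plus strand), chr11:120824548-120824797 (minus strand) and chr2:155517793-155518042 (plus strand). The Elovl6 window runs past 129532355, the gene start given above, so the RefSeq start lies inside that gene span.
Elovl6: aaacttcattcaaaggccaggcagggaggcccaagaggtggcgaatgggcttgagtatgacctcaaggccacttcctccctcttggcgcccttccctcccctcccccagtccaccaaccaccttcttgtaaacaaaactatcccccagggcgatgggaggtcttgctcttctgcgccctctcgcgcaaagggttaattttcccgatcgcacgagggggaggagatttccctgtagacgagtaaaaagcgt
Fasn: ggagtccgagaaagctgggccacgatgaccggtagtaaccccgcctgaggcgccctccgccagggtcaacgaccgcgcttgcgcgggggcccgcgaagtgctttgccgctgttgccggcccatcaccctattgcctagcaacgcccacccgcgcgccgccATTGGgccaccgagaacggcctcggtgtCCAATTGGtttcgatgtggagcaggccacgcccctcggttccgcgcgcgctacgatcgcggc
Acss2: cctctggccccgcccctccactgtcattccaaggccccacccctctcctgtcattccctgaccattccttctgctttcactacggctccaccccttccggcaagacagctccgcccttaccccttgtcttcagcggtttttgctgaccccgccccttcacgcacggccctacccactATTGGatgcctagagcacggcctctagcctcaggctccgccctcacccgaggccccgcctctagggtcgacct
Fasn has 3 matches, of which 2 overlap, beginning 90, 62 and 59 bases before the start. Acss2 has 1 match at 73 bases, and Elovl6 has 0 in this window. The window read for Acaca (chr11:84195188-84195437), not shown, has 0 as well. A single window was read for each gene, and which start is used in iWAT was not tested. These counts therefore describe the windows, and another start of the same gene could differ. Of the 20 lipogenic genes, 16 had an entry in the promoter table. CCAAT was in 9 of the 16 (34.5% of 27025 promoters on either strand). The sterol regulatory element TCACNCCAC was in 1 of 16 (1.04% of promoters) and the E-box CACGTG in 3 of 16 (6.05%). A match is a description of letters and not a bound site.

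Storage and release of lipid gave a mixed picture. Of 23 genes of lipolysis and triglyceride synthesis, 16 lay above 0 (median 0.28), and 5 had an unadjusted p under 0.05, all above 0. The median was 0.084 without WT chow 2. On WD 6 rose in KO, none of them without KO WD 1, KO WD 2 or WT WD 3. The median KO effect was 0.49 on WD and 0.17 on chow, where 17 lay above 0. Dgat1, which completes triglyceride, had 67.3, 66.6 and 77.5 FPKM in KO WD, against 42.8, 45.5 and 47.6 FPKM in WT WD. On chow Dgat1 had 78.3, 83.2 and 71.5 FPKM in KO chow, against 78.1, 78.3 and 69.7 FPKM in WT chow. The WT WD libraries were lowest and the difference was 0.58 ± 0.15 (SE). Agpat3, an acyltransferase of glycerolipids, had 47.4, 40.96 and 31.2 FPKM in KO WD, against 17.3, 22.3 and 19.4 FPKM in WT WD, with a difference of 0.78 ± 0.23 (SE). Gpam, which starts glycerolipid synthesis, had a difference of 0.82 ± 0.33 (SE) and no call on WD. Among 12 lipid droplet coat genes 8 lay above 0 (median 0.09). Hilpda, an inhibitor of lipolysis, had 8.75, 5.26 and 8.17 FPKM in KO WD, against 8.61, 20.1 and 15.2 FPKM in WT WD, with a difference of -0.94 ± 0.38 (SE). Plin5, which ties droplets to mitochondria, had 59.8, 56.5 and 34.03 FPKM in KO WD, against 8.55, 14.4 and 6.11 FPKM in WT WD. On chow Plin5 had 27.3, 27.9 and 21.04 FPKM in KO chow, against 6.33, 8.47 and 4.64 FPKM in WT chow. KO libraries lay above WT libraries on both diets, with KO effects of 2.29 on WD and 1.84 on chow, and its difference was 0.45 ± 0.44 (SE, -0.53 to 1.42). The authors' deposited DESeq2 results on chow gave Plin5 a log2 fold change of 1.99 (adjusted p = 1.47e-10). The 22 cholesterol synthesis genes had a median of 0.07, 0 had an unadjusted p under 0.05, and 1, Nsdhl, a sterol dehydrogenase, rose in KO on WD (1.04).

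The medians of most of these lists were smaller without the libraries of the 3 highest lymphocyte sums (KO chow 3, WT chow 2 and KO WD 2), a set chosen after seeing the data. The median difference was then 0.45 for thermogenic genes, 0.13 for complex I, 0.16 for complexes II to V, 0.15 for pyruvate entry and the TCA cycle and 0.23 for fatty acid oxidation. It was 0.068 for the mitochondrial ribosome, 0.096 for branched-chain amino acid breakdown, 0.36 for de novo lipogenesis and 0.027 for lipolysis and triglyceride synthesis. For the mitochondrially encoded genes it was 0.73. The median of all genes in that fit was -0.0081.

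Among 25 adipokines and genes of adipocyte identity, 14 lay above 0 (median 0.05), and Adrb3 was the 1 gene called on WD. Lep, the satiety hormone leptin whose level follows fat mass, had 132, 137 and 339.6 FPKM in KO WD, against 343, 686 and 682 FPKM in WT WD. On chow Lep had 178, 285 and 99.7 FPKM in KO chow, against 165, 240.0 and 94.3 FPKM in WT chow. WT WD libraries were highest by a narrow margin over KO WD 3, and the difference was -1.71 ± 0.73 (SE, -3.33 to -0.08). Sfrp5, a secreted inhibitor of Wnt signals, had 9.66, 13.7 and 44.3 FPKM in KO WD, against 76.1, 104 and 203 FPKM in WT WD. On chow Sfrp5 had 8.37, 55.9 and 7.22 FPKM in KO chow, against 8.44, 25.04 and 11.3 FPKM in WT chow, and its difference was -2.798 ± 1.12 (SE, -5.297 to -0.299). Neither gene was called on WD. Retsat, a retinol saturase active in fat cells, had a difference of 0.65 ± 0.28 (SE).

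Genes of macrophages and inflammation lay mostly below 0. Of 20 macrophage genes 18 lay below 0 (median -0.29), and of 20 genes of lipid-associated macrophages 16 did (median -0.30). In the list of 20 macrophage genes none was called on WD, and 0 had an unadjusted p under 0.05 in the difference. Csf1r, the growth factor receptor of macrophages, had 26.4, 21.3 and 26.4 FPKM in KO WD, against 30.00, 30.6 and 56.2 FPKM in WT WD, with a difference of -0.55 ± 0.33 (SE). Trem2, a lipid receptor of these cells, had 2.61, 1.71 and 1.18 FPKM in KO WD, against 1.81, 6.42 and 7.26 FPKM in WT WD, with a difference of -1.005 ± 0.63 (SE). WT WD 3 was the highest of the 12 libraries for both. Cd9, a membrane protein of lipid-associated macrophages that other cells also make, had a difference of -0.63 ± 0.26, the 1 unadjusted p under 0.05 of the lipid-associated list. Fabp5, a fatty acid binding protein of that list which adipocytes also make, rose in KO on WD and was named after its values were seen. It had 61.5, 52.3 and 83.3 FPKM in KO WD, against 39.1, 36.4 and 39.9 FPKM in WT WD. On chow Fabp5 had 59.8, 53.4 and 52.8 FPKM in KO chow, against 31.7, 27.6 and 33.8 FPKM in WT chow. KO libraries lay above WT libraries on each diet, with KO effects of 0.73 on WD (adjusted p = 0.0324) and 0.82 on chow, and the difference was -0.08 ± 0.22 (SE). The call of Fabp5 on WD was lost without KO WD 1, KO WD 2, any of the 3 WT WD libraries or WT chow 1. The summed level of the macrophage list was 754, 876 and 641 FPKM in KO WD, 835, 809 and 1454 FPKM in WT WD, 613 to 707 FPKM in KO chow and 642 to 768 FPKM in WT chow. Without WT WD 3 the median was -0.04 for the macrophage list and -0.13 for the lipid-associated list. It was -0.13 for the macrophage list without KO WD 3 and -0.57 for the lipid-associated list without WT WD 1. Of 21 inflammation genes 15 lay below 0 (median -0.46), and 2 fell in KO on WD. The median was -0.22 without WT WD 3, -0.29 without KO chow 3, -0.31 without KO WD 3 and -0.68 without WT WD 1. Those that fell were the monocyte attractants Ccl2 and Ccl7. Ccl2 had 4.92, 3.21 and 3.805 FPKM in KO WD, against 7.88, 28.8 and 24.8 FPKM in WT WD. On chow Ccl2 had 1.25, 3.85 and 1.49 FPKM in KO chow, against 3.22, 2.72 and 1.77 FPKM in WT chow. Ccl7 had 4.53, 5.36 and 4.805 FPKM in KO WD, against 10.8, 20.1 and 25.6 FPKM in WT WD. Their differences were -1.72 ± 0.62 and -1.35 ± 0.52 (SE), and in the 12 fits without 1 library the call on WD was kept in 3 for Ccl2 and in 5 for Ccl7. It was lost for both without KO WD 1, KO WD 2, KO WD 3, WT WD 2, WT WD 3, KO chow 1 or WT chow 2, for Ccl2 also without KO chow 3 or WT chow 1, with adjusted p-values of at most 0.156. Cxcl9, an interferon-induced attractant of T cells, lay above 0 at 0.97 ± 0.304 (SE).

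Matrix and cell division genes also lay mostly below 0. Of 37 genes of collagens and matrix 24 lay below 0 (median -0.21), and 4 had an unadjusted p under 0.05, all below 0. Thbs2, an inhibitor of vessel growth in the matrix, had 8.04, 8.25 and 9.18 FPKM in KO WD, against 18.1, 20.8 and 33.3 FPKM in WT WD. On chow Thbs2 had 6.44, 10.4 and 5.48 FPKM in KO chow, against 11.2, 6.81 and 5.78 FPKM in WT chow. It fell in KO on WD (adjusted p = 0.0303), and its difference was -1.28 ± 0.399 (SE, -2.17 to -0.39). Thbs1 had 2.34, 2.14 and 5.199 FPKM in KO WD, against 5.23, 13.4 and 25.01 FPKM in WT WD, with a difference of -1.49 ± 0.63 (SE). Col12a1 and Col16a1, collagens that bind to fibrils, had differences of -0.92 ± 0.396 and -1.08 ± 0.48. The median of the list ran from -0.58 to 0.074 when 1 library was left out, and it was above 0 without KO WD 2 (0.029), KO chow 2 (0.074) or WT chow 3 (0.025). Of 22 cell cycle genes 21 lay below 0 (median -0.52), 5 had an unadjusted p under 0.05, all below 0, and none was called on WD. Mki67, a marker of dividing cells, had 1.304, 1.43 and 0.743 FPKM in KO WD, against 1.06, 2.54 and 3.99 FPKM in WT WD. On chow Mki67 had 1.05, 1.302 and 2.64 FPKM in KO chow, against 0.747, 0.773 and 1.06 FPKM in WT chow, and its difference was -1.11 ± 0.44 (SE). Ccnb1, Rrm2 and Cdk1, which drive division or make its nucleotides, had differences of -0.81 ± 0.26, -0.92 ± 0.38 and -0.56 ± 0.24. The levels of Mki67 were low. The median of the list was -0.32 without WT WD 3 and -0.78 without WT WD 1. It was -0.14 with a filter of 5 FPKM, -0.93 with a pseudocount of 0.1, -1.19 with edgeR and -1.195 with DESeq2. Red cell genes lay in the same direction. All 5 were below 0 (median -1.63), and Alas2, the heme enzyme of red cell precursors, had 7.25, 6.76 and 15.2 FPKM in KO WD, against 59.1, 34.7 and 21.7 FPKM in WT WD. Its difference was -1.63 ± 0.61 (SE), and that of Hbb-bt, an adult globin, was -1.75 ± 0.73. Skeletal muscle genes had a median of -1.63 over 13 genes, 10 of them below 0. Without KO WD 1 and WT WD 1, both high in muscle genes, the difference was -1.13 for Alas2 and -1.09 for Hbb-bt.

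Antigen presentation lay above 0, together with the lymphocyte markers. All 18 genes tested lay above 0 (median 0.66), and 4 had an unadjusted p under 0.05, but none was called on WD. The median KO effect was 0.36 on WD and -0.31 on chow, where 16 of the 18 lay below 0. Tap1, which pumps peptides into the endoplasmic reticulum, had 7.86, 15.8 and 8.76 FPKM in KO WD, against 8.23, 4.63 and 6.77 FPKM in WT WD. On chow Tap1 had 9.89, 6.96 and 13.9 FPKM in KO chow, against 10.8, 17.3 and 18.7 FPKM in WT chow. The groups overlapped on each diet, and the difference was 1.19 ± 0.45 (SE). Tap2, its partner, had a difference of 0.56 ± 0.196, and Psmb8 and Psmb9, subunits of the immunoproteasome, had differences of 0.81 ± 0.33 and 0.84 ± 0.31. The class I molecules H2-D1 and H2-K1, named after their values were seen, were low in 1 library. H2-D1 had 257, 507 and 367 FPKM in KO WD, against 544, 29.5 and 561 FPKM in WT WD, and H2-K1 had 250.1, 461 and 331 FPKM in KO WD, against 423, 96.6 and 342 FPKM in WT WD. Leaving out that library, WT WD 2, moved the difference of H2-D1 to 0.21, against 1.604 with all libraries, and the median of the list to 0.33. Without KO WD 2 the median was 0.32. All 15 T and B lymphocyte markers lay above 0 (median 0.73). Without KO WD 2, KO chow 3 and WT chow 3 the median of the antigen presentation list was 0.38, and without KO chow 3, WT chow 2 and KO WD 2, the 3 highest lymphocyte sums, it was 0.55.

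Genes that handle magnesium and calcium gave few calls. Of 15 magnesium transport genes 11 lay below 0 (median -0.16), 0 had an unadjusted p under 0.05, and Mrs2 was the 1 gene called on WD. Slc41a2, a magnesium transporter of the cell membrane, had 2.04, 2.14 and 2.396 FPKM in KO WD, against 2.52, 2.82 and 3.62 FPKM in WT WD, with a difference of -0.31 ± 0.17 (SE). Trpm7, a channel that also carries a kinase, had a difference of -0.26 ± 0.14. Of 13 genes of the calcium uniporter and its partners 12 lay above 0 (median 0.09). Letm1, an ion exchanger of the inner mitochondrial membrane, had 17.9, 19.3 and 12.2 FPKM in KO WD, against 7.53, 7.45 and 6.12 FPKM in WT WD. On chow Letm1 had 10.6, 9.23 and 9.64 FPKM in KO chow, against 6.67, 5.800 and 5.53 FPKM in WT chow. Together with Letmd1, a mitochondrial protein of brown fat, it rose in KO on WD (adjusted p = 0.0132 and 0.0323), and the differences were 0.47 ± 0.22 and 1.12 ± 0.52 (SE). In the authors' deposited DESeq2 results on chow the adjusted p was 0.00228 for Letm1 and 0.127 for Letmd1.

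The medians of the remaining pathway lists lay between -0.03 and 0.14. Of 24 genes of hypoxia and glycolysis 15 lay above 0 (median 0.14), and 3 rose in KO on WD. Among them Egln3, an oxygen sensor, had 2.83, 2.400 and 1.68 FPKM in KO WD, against 0.624, 0.495 and 0.465 FPKM in WT WD, with a difference of 1.14 ± 0.32 (SE). Hk1, a hexokinase, had a difference of 0.39 ± 0.16. The medians were 0.01 for 21 stress response genes, -0.01 for 11 genes of creatine and calcium cycling and -0.03 for 18 circadian clock genes, and in each of these lists 0 had an unadjusted p under 0.05. Lonp1, a protease of the mitochondrial matrix, was nearest in the stress list at 0.696 ± 0.33. Among cell type markers the medians were 0.10 for 12 endothelial genes, 0.15 for 13 fibroblast and progenitor genes, 0.50 for 3 epithelial genes of the 12 in the list (Krt5, Krt14, Wap and Csn2 were at 0 in 8 to 11 of the 12 libraries), 0.37 for 6 nerve and Schwann genes and 0.12 for 9 adipocyte genes.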

How the data were processed

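RNA-seq libraries of polyadenylated RNA were read from both ends, per the labels. Tools named in the submitters' processing notes are HISAT2 2.0.5 and DESeq2 1.20.0, with the build mm10. For the read counter and the strandedness, the sources used here give nothing. The authors deposited FPKM for 54532 genes, per the file headers, with gene lengths. Their KO against WT tables, from DESeq2 per the deposited readme, hold read counts, log2 fold changes and p-values, as deposited, for genes with an unadjusted p under 0.05. A further 28 columns of per-library or per-group values were not used.

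Whole reads were recovered from FPKM, gene length and a factor for each library. All 285923 values above 0 came out whole to a tolerance of 0.01 reads (100%), and all 23958 deposited counts compared were equal to them. Reads assigned to genes are 15.4 to 20.4 M per library. The library size implied by the FPKM was 1.24 to 1.60 times these reads. Whether that comes from reads outside the genes or from a scaling was not tested. Positions are from the deposited table; 98.3% of 54409 identifiers had equal coordinates in GENCODE vM21.

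The 12 libraries were fitted in 1 model of 4 groups with limma 3.58.1 (R 4.3.3) with trend and robust settings, after log2(FPKM + 1), on the genes averaging 0.5 FPKM or more. Benjamini-Hochberg adjustment ran over all 14685 genes. The pseudocount of 1 understates differences of low genes. Alternatives were a pseudocount of 0.1, no filter, a filter of 5 FPKM, other scalings, edgeR 4.0.16 and DESeq2 1.42.0 on recovered reads, library weights, a replicate block and leaving out libraries. The fit without the 3 libraries of the highest lymphocyte sums was chosen after seeing the data. The code was tested on simulated data. Tables and plots used Python 3.11.15, pandas 2.3.3, numpy 2.4.6 and matplotlib 3.10.9.

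The rule for named genes took Mrs2, the 12 genes with the smallest p in each direction that averaged at least 3 FPKM in their highest group and carry a proper gene symbol, and from each list up to 4 members with the smallest p. Ucp1, Fabp5, H2-D1, H2-K1 and the overlapping Gm45470 were named outside it, after their values were seen. A few genes that the rule takes are not reported here. Members, 25 pathway lists, 9 marker lists and tests were chosen with earlier results of these data known.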

Additional observations from a re-analysis of the deposited data

How the results depend on the processing

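The count of genes called in the genotype by diet difference was 0 with all 12 libraries, and 0 with a pseudocount of 0.1, no filter, quantile normalization, edgeR, the replicate block and without any of 3 sets of libraries. These sets are KO WD 1 and WT WD 1, high in muscle genes; KO WD 2, KO chow 3 and WT chow 3, picked as high in lymphocyte genes in an earlier look at these data; and KO chow 3, WT chow 2 and KO WD 2, the highest lymphocyte sums, added after seeing the data. It was 1 with a filter of 5 FPKM, 1 with median-of-ratios scaling, 2 with library weights, 51 with DESeq2 and 0 to 8 when 1 library was left out. For KO against WT on WD, 624 with all libraries, it was 204 without a filter, 1454 with DESeq2, 1514 with library weights, 687 with the replicate block, 4, 15 and 5 without these sets and 16 to 871 when 1 library was left out. On chow it was 0, against 1 without a filter, 68 with DESeq2, 1 with the replicate block and 0 to 7 when 1 library was left out. The difference kept its direction in the alternatives in which they were tested for 94 genes followed through them (65 of them with the filter of 5 FPKM), except for Mrs2 and Fabp5. Fabp5 was -0.08, 0.064 without KO WD 2 and 0.11 without the highest lymphocyte sums. Mrs2 was -0.06, 0.15 with library weights, 0.016 without the muscle set and 0.082 without the earlier lymphocyte set, with -0.27 to 0.070 when 1 library was left out. On WD the KO effect of H2-D1 ranged from -0.60 to 1.497 and that of H2-K1 from -0.17 to 0.88 when 1 library was left out. Of 58 of these genes called on WD, 6 kept the call without KO WD 1, without KO WD 2 or without WT WD 3. Without the 3 sets 1, 4 and 3 kept it. These fits also have fewer samples, and the cause of the lost calls was not tested. The list median changed sign in 12 of 24 alternatives for creatine and calcium cycling, 10 for the clock, 5 for adipokines, 4 for stress, 3 for matrix, 2 for droplet coat, 2 for cholesterol synthesis and 1 for hypoxia, and in none for the other 17 lists. No scaling moved the median difference of all genes by over 0.1. Equal replicate numbers did not pair the libraries across all groups (residual correlations of -0.556 to 0.407 across genes over 18 pairs). On chow all 3 pairs were over 0.1. With 3 libraries a group, the median standard error of 0.209 limits which differences can be called.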

Other observations

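The 51 genes that DESeq2 called in the genotype by diet difference include 4 further genes, chosen after their values were seen, with unlike directions. Nat8l, which makes N-acetylaspartate in brown fat, had mean levels of 32.8 FPKM in KO WD, 12.8 FPKM in WT WD, 31.2 FPKM in KO chow and 29.3 FPKM in WT chow, with a log2 difference of 1.17 in limma (adjusted p = 0.573) and of 1.28 in DESeq2 (adjusted p = 0.0129). Rassf6, a tumour suppressor of the Hippo network, averaged 0.406 FPKM in KO WD, 0.0587 FPKM in WT WD, 0.744 FPKM in KO chow and 1.22 FPKM in WT chow, and its level rests on few reads in WT WD. Bcat1, the cytosolic aminotransferase of branched-chain amino acids, averaged 0.913 FPKM in KO WD, 2.48 FPKM in WT WD, 1.02 FPKM in KO chow and 0.536 FPKM in WT chow. Map1a, a protein of microtubules, averaged 1.14 FPKM in KO WD, 7.21 FPKM in WT WD, 1.30 FPKM in KO chow and 0.910 FPKM in WT chow. In all 4 genes the WT WD mean was the lowest or the highest of the 4 groups, and limma called none of them in the difference.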
